A study of Mus musculus with 4 samples.

Results

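Metallothionein-high cells are the mouse embryonic stem cells (mESC) in which the paired transcripts Mt1 and Mt2 took the largest share of the cell's RNA. They were chosen within each library as the highest 5% of kept cells by the summed unique molecular identifiers (UMIs) of Mt1 and Mt2 over all UMIs of the cell. There were 1597 such cells among 31989 kept cells, out of 41142 barcodes in all. Libraries 1 to 4 gave 405, 425, 394 and 373 of them, and the lowest 50% of each library by the same share (4059, 4257, 3946 and 3732 cells), here called metallothionein-low cells, served as the comparison. Because the Mt1 and Mt2 counts chose the cells, the levels of these transcripts are given as a description, and what is compared is every other gene.

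The study profiled whole cells by droplet single-cell RNA sequencing of transcript 3′ ends. WT cells were the E14tg2a.4 line, and Srrm2 hKO (heterozygous knockout) cells were the gene-trap line CG0630, a truncation of Srrm2 made in the same parental line and so a single clone. The labels list 2 replicates of each, all cultured with LIF and kept in a serum-free medium before collection. The labels and the study's methods differ on the length of that culture, so it is not given here. The Srrm2 protein is a component of the splicing machinery rich in serine and arginine.

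The library numbers could not be traced to samples from the labels or files, and the libraries are therefore given by number, no WT or Srrm2 hKO group was formed, and no p-value or mean over libraries is given. The range over the 4 libraries therefore holds both culture differences and any effect of genotype, which cannot be told apart here. Srrm2 itself stood at 387, 507, 224 and 328 counts per 1000000 UMIs (CPM) in the metallothionein-high cells of libraries 1 to 4 and at 388, 546, 240.4 and 368 CPM in metallothionein-low cells, and was not used to assign libraries. Among the 31989 kept cells 211 (0.660%) shared their barcode sequence with a kept cell of another library. Among the 1597 metallothionein-high cells 0 shared it with each other. Sharing between them and the remaining kept cells was not counted, so the 0 cannot be set against the 0.660%.

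Metallothioneins are small, cysteine-rich proteins that bind zinc and copper, buffer the free ions and react with oxidants. Their transcription is raised by metal-responsive transcription factor 1 (Mtf1), which binds zinc and recognises metal response elements near the gene start, and also by glucocorticoids and oxidative stress. Mt1 and Mt2 lie side by side and are widely expressed, Mt3 is best known in brain and Mt4 in stratified epithelia. In cultured cells the level is sensitive to the zinc in the medium, and stem cells in culture express both Mt1 and Mt2.

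Mt2 (ENSMUSG00000031762) lies at 94172664 to 94173568 and Mt1 (ENSMUSG00000031765) at 94179082 to 94180327 of chromosome 8, both transcribed from the plus strand (GRCm38, GENCODE M21), with 5514 bases between them. The sequences just upstream of both starts are shown with matches to a loose form of the element through which metals are known to act on metallothionein genes. Each run is the 240 bases from 250 to 11 before the start that RefSeq gives (GRCm38.p6, plus strand, chr8:94178839-94179078 for Mt1 and chr8:94172368-94172607 for Mt2). Capitals mark matches on either strand to TGCNCNC. This pattern allows any letter where the core of a metal response element, TGCRCNC, has A or G.
Mt1: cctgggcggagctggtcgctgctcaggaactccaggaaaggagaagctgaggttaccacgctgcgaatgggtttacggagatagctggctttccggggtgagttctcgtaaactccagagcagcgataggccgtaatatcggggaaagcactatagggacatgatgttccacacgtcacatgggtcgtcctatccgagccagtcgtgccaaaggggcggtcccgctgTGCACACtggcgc
Mt2: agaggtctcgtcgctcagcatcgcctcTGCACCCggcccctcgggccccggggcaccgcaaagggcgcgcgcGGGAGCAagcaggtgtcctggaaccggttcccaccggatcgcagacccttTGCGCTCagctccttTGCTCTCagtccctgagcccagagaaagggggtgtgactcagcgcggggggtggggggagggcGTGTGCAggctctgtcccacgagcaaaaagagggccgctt

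The Mt1 run held 1 match, a number that 42.9% of the 32851 RefSeq windows of this length reached. The Mt2 run held 5, which 0.289% of windows reached. Of these 5, GGGAGCA and TGCTCTC match only the looser pattern, so 5 is not a count of metal response elements. Where the window was read on to 50 bases after the RefSeq start, Mt1 held 3 matches (7.10% of windows held as many) and Mt2 held 6 (0.225%). The counts thus depend on the start used, and the RefSeq starts are not the GENCODE ones given above. Matches further downstream were not counted, so the 1 match is not a count for the Mt1 promoter as a whole. A match is only a string of letters and was not read as binding by Mtf1.

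The median kept cell of libraries 1 to 4 carried 1956, 1109.8, 2722 and 1542 CPM of the summed transcripts, and the highest cell 8192, 9173, 12722 and 15712 CPM. The lowest metallothionein-high cell stood at 3807, 2832, 5287 and 4198 CPM and the cell just outside at 3806, 2830.0, 5286 and 4197 CPM, which any limit by rank gives and which says nothing of whether the cells form a population of their own. Metallothionein-high cells carried a median of 80, 70, 117 and 112 UMIs of Mt1 and Mt2 together, against 24, 13, 35 and 17 in metallothionein-low cells.

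**Figure D1:**
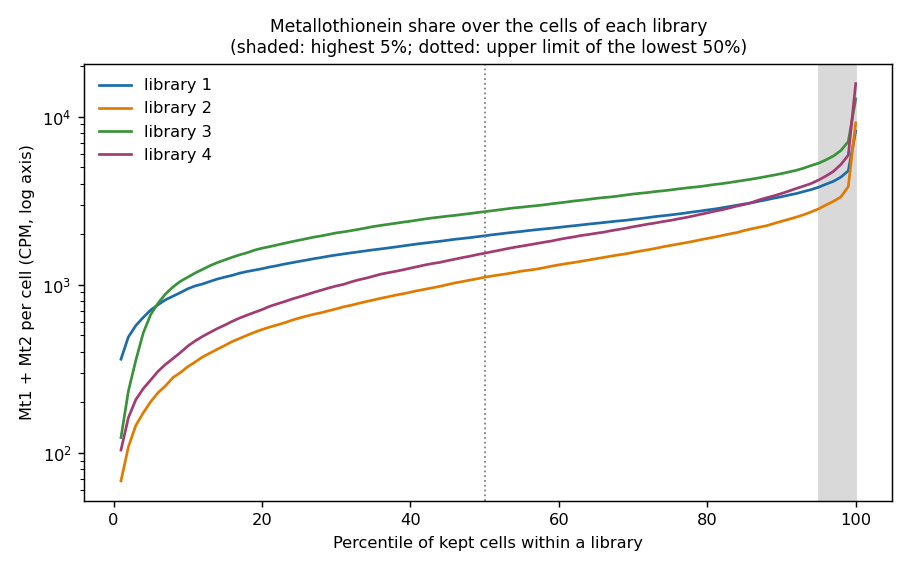
Summed Mt1 and Mt2 level per cell (CPM, log axis) against the percentile of the cell within its library, 1 line per library, with the highest 5% shaded. The 4 lines climb smoothly into the shaded range, where the lowest cells stood at 3807, 2832, 5287 and 4198 CPM.

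Summed over cells, Mt1 stood at 3119, 2333, 4577 and 3705 CPM in the metallothionein-high cells of libraries 1 to 4 and at 777, 394, 1067 and 548 CPM in metallothionein-low cells. Mt2 stood at 1309, 1098, 1792 and 1589 and at 575, 239, 685 and 309 CPM. The ratio of the classes was larger for Mt1 (4.01, 5.92, 4.29 and 6.77) than for Mt2 (2.28, 4.59, 2.62 and 5.15) in every library, and both ratios were larger in libraries 2 and 4 than in libraries 1 and 3. Mt1 was also the more abundant transcript in both classes of every library, with a ratio of Mt1 to Mt2 UMIs of 2.38, 2.12, 2.55 and 2.33 in metallothionein-high cells and 1.35, 1.65, 1.56 and 1.77 in metallothionein-low cells. The choice summed raw UMIs and so gave Mt1 the greater weight. The larger ratios for Mt1 are therefore only a description.

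The libraries also differed in their overall level. Over all kept cells Mt1 stood at 1318, 811, 1872 and 1199 CPM and Mt2 at 772, 452, 947 and 619 CPM, an order of library 3, 1, 4 and 2 for both transcripts. The exact 95% Poisson intervals of neighbouring libraries did not overlap, but these intervals cover counting error only.

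To read the level on UMIs that had no part in choosing the cells, the choice was made again on part of the data. Any variation between cells that Mt1 and Mt2 share would give ratios above 1, so these readings are a description. In the highest 5% of cells chosen by Mt1 alone, Mt2 stood at 1168, 989.7, 1646 and 1465 CPM against 626, 272, 723 and 345 CPM in the lowest 50% by Mt1, which is 1.87, 3.64, 2.28 and 4.25 times as high. In cells chosen by Mt2 alone, Mt1 was 2.26, 3.85, 2.83 and 4.67 times as high. Cells chosen by one transcript thus carried more of the other in every library, but the cells chosen were only in part the same. Of the cells chosen by Mt1 alone 81.0, 81.9, 84.3 and 84.5% were metallothionein-high cells, and of those chosen by Mt2 alone 42.0, 56.0, 55.6 and 59.8% were. The reads of genes as alike as Mt1 and Mt2 may be uncertain.

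Splitting each cell's UMIs at random gave a further reading. Cells were chosen on 50% of their UMIs, and in the other UMIs the summed transcripts were 2.73, 4.49, 3.24 and 5.42 times as high in the highest 5% as in the lowest 50%, against 3.27, 5.42, 3.64 and 6.18 times on the UMIs that chose the metallothionein-high cells. Of the cells so chosen, 74.3, 80.5, 79.9 and 80.2% were also metallothionein-high cells of libraries 1 to 4. A second random split gave 2.75, 4.50, 3.24 and 5.46 times.

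**Figure D2:**
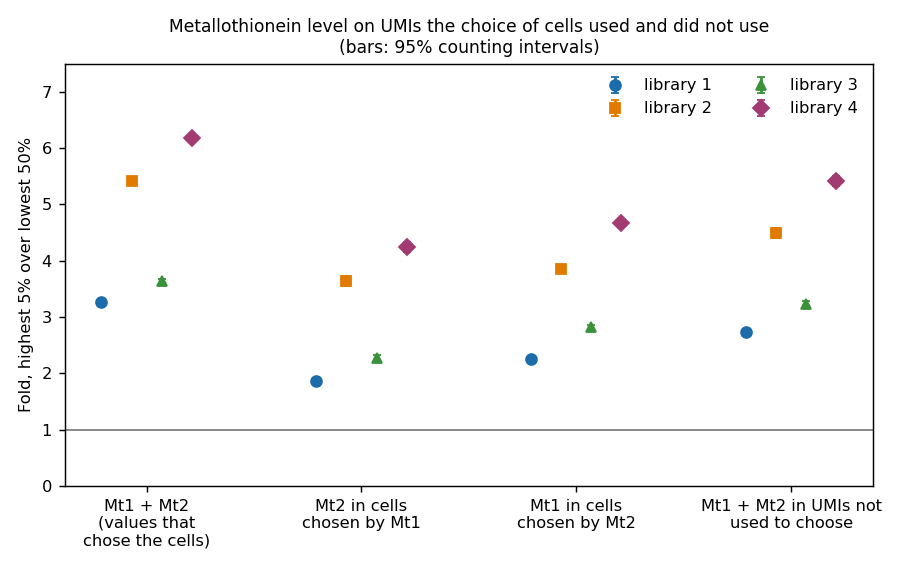
Fold of the highest 5% of cells over the lowest 50%, with 95% counting intervals, for the values that chose the cells and for 3 readings on UMIs that did not. The readings apart from the choice were smaller, at 1.87 to 5.42, and were above 1 in all 4 libraries, as any shared variation between cells would give.

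Across kept cells the CPM of Mt1 and Mt2 correlated with r = 0.573, 0.732, 0.688 and 0.766 in libraries 1 to 4, given as a description, since both values of a cell share its total.

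The other members of the family were far lower. Mt3 stood at 3.26, 8.74, 4.37 and 11.7 CPM in metallothionein-high cells and at 2.41, 3.91, 2.91 and 6.39 CPM in metallothionein-low cells, 1.36, 2.24, 1.51 and 1.84 times as high. It was higher in all 4 libraries, but rested on 26, 80, 34 and 99 UMIs in the metallothionein-high cells, and the interval of the ratio in library 1 was 0.866 to 2.05. Mt4 had only 1, 17, 2 and 27 UMIs there.

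The genes around the cluster held few differences. Of 25 genes with a UMI within 500 kb of Mt1, Mt1 and Mt2 included, 8 others had enough counts to be read, of which 2 were higher and 2 lower in every library, too few to set against the 10.5% higher and 23.1% lower over all genes read. Bbs2, a subunit of the BBSome of the primary cilium, stood at 10.8, 13.2, 10.2 and 12.5 CPM in metallothionein-high cells and 8.61, 9.76, 8.52 and 5.78 CPM in metallothionein-low cells. Nudt21, a cleavage factor of mRNA 3′ ends, differed by log2 0.14, 0.09, 0.10 and 0.02, and Nup93, a nuclear pore protein downstream of Mt1, by 0.07, 0.15, -0.04 and 0.0011. The median over the 444 genes read on chromosome 8 was -0.00055, -0.02, -0.05 and -0.05, near the median over all genes.

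Among the other genes the differences were small. A gene was read when it had at least 500 UMIs over both classes in every library, and its CPM, with Mt1 and Mt2 left out of the totals, was set between the classes of the same library. Of 8224 genes read, 0 (0%) exceeded metallothionein-low cells by 1.5-fold or more in every library, and 9 (0.109%) lay that far below them. These counts depended on library 1, where 0.997% of the genes differed over 1.5-fold, against 1.24, 4.51 and 8.82% in libraries 2 to 4. Without library 1, 3 genes passed upward and 82 downward. At a smaller limit, a CPM at least 25% higher or at least 20% lower, the counts were 17 higher (0.207%) and 44 lower (0.535%). A call needs every library, so leaving 1 out can keep or add genes but cannot remove any. The size of the rise differed, with 48 higher and 270 lower without library 1, 30 and 83 without library 2, 26 and 59 without library 3 and 21 and 57 without library 4. With the count minimum set on cells of neither class, an alternative added after seeing the data, 17 were higher and 24 lower. Of those 17 higher genes 16 were among the first 17. Of the 44 lower genes 6 were also at least 20% lower in the UMIs with no part in the choice, and 6 with keratin or contractile cells left out. Both readings reuse counts that named the 44 genes. In any size, 864 genes (10.5%) were higher and 1899 (23.1%) lower in every library. That excess of lower genes depended on the scale, since median-of-ratios scaling in place of CPM gave 1407 higher and 1329 lower.

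The 17 genes at least 25% higher were named after their values were seen. They comprised carriers of lipids and haem metabolism enzymes (Fabp3, Apoe, Blvrb), enzymes that handle electrophiles and carbonyls (Gstm2, Cbr3), genes of germline or naive-state chromatin (Dppa3, Rhox6, Rhox9), an epithelial transcription factor and a tight-junction protein (Elf3, Tjp3), a fibroblast growth factor (Fgf17), and Mylpf, Calml4, Klhl13, Mgarp, Rsph1 and Uap1l1. For 16 of the 17 the 95% counting interval of the ratio lay above 1 in every library, and Rhox6 was the exception (0.991 to 1.65 in library 3). The genes were named by these same ratios, so that count is only a description.

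Fabp3, a cytosolic fatty acid carrier, stood at 661, 209.8, 407 and 168 CPM in the metallothionein-high cells of libraries 1 to 4 and at 434, 145, 272 and 85.9 CPM in metallothionein-low cells. The log2 differences were 0.61, 0.54, 0.58 and 0.97, and libraries 2 and 3 kept it under the 1.5-fold limit. Apoe, the apolipoprotein that carries cholesterol between cells, stood at 1580.2, 631, 1488 and 532 against 1237, 445, 841 and 242 CPM, ratios of 1.28, 1.42, 1.77 and 2.20. The classes were apart in every library, least in library 1 and most in library 4.

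Mylpf, a myosin light chain of fast muscle that these cells transcribe at a moderate level, stood at 199.96, 97.4, 224 and 51.9 against 135, 58.0, 124 and 21.8 CPM. Its ratio was 1.48, 1.68, 1.81 and 2.38, so only library 1 lay under the 1.5-fold limit. Klhl13, an adaptor of a cullin ubiquitin ligase, stood at 36.8, 102, 41.6 and 93.6 against 21.6, 70.2, 26.9 and 47.0 CPM, and only library 2 lay under that limit. Elf3 stood at 8.57, 15.5, 9.57 and 15.5 against 5.75, 10.1, 5.32 and 7.90 CPM, with library 1 just under the limit at 1.49 (counting interval 1.14 to 1.92). In cells of neither class Elf3 did not meet the count minimum, with 467 UMIs in library 1 and 486 in library 3.

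Blvrb, a flavin and biliverdin reductase, was 1.29, 1.28, 1.27 and 1.29 times as high in libraries 1 to 4, the narrowest range of ratios among the 17 genes. Dppa3, a maternal factor that marks the naive state and germ cells, stood at 28.2, 96.4, 56.6 and 89.2 against 22.5, 61.9, 40.4 and 40.9 CPM, with its widest gap in library 4. Calml4, a calmodulin-like protein of the brush border, was 2.09, 1.41, 1.73 and 2.27 times as high. The glutathione transferase Gstm2 (1.41, 1.34, 1.31 and 1.53) and the homeobox genes Rhox6 (1.36, 1.84, 1.29 and 1.74) and Rhox9 (1.68, 1.91, 1.56 and 1.44) belong to families of close copies, so their reads may be uncertain.

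**Figure D3:**
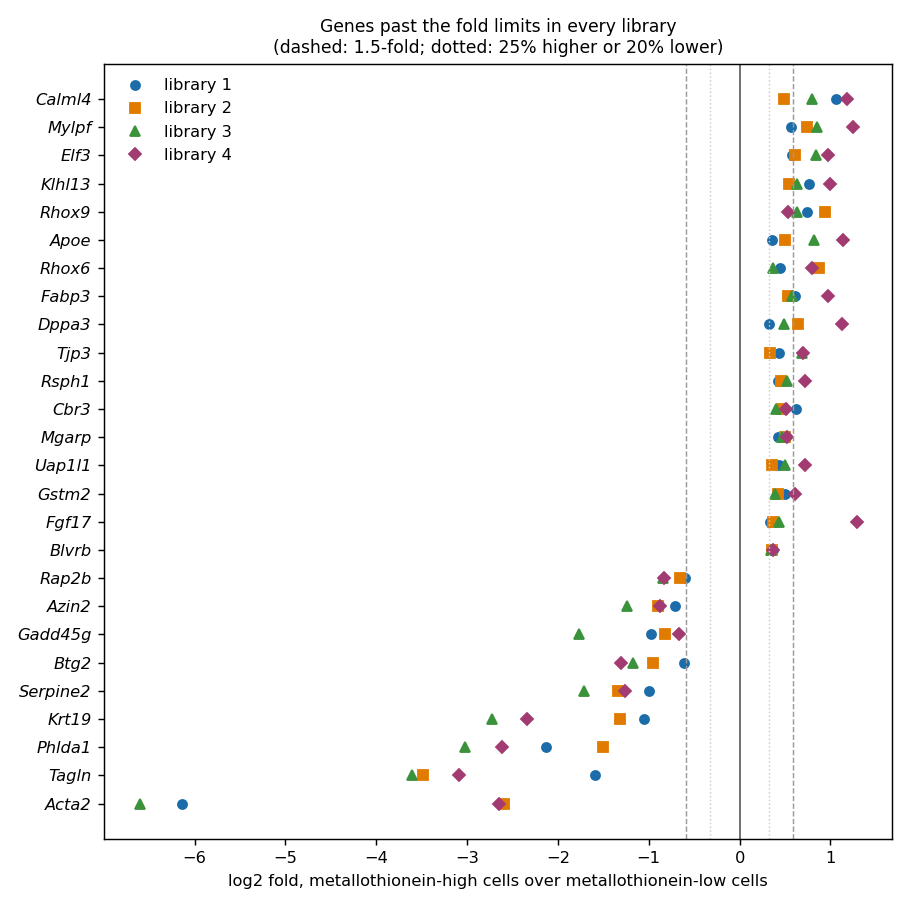
log2 fold of metallothionein-high cells over metallothionein-low cells for the 17 genes at least 25% higher and the 9 genes at least 1.5-fold lower in every library, 1 marker per library. Upward differences stayed within 1.29 (Fgf17, library 4) and downward ones reached -6.60 (Acta2, library 3), and library 1 was often the closest to 0. The extremes are not comparable, since metallothionein-low cells are far more numerous and genes high in them meet the count minimum more easily. In cells of neither class 3 of the 9 lower genes met it, and Acta2 did not.

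Matching the metallothionein-low to the metallothionein-high cells by UMIs, naive panel and keratin or Acta2 detection left 5 of the 17 genes at least 25% higher. With that matching Apoe kept log2 differences of 0.42, 0.39, 0.66 and 0.67, Calml4 of 1.07, 0.44, 0.61 and 0.46 and Elf3 of 0.62, 0.53, 0.82 and 0.66. Rhox9 turned negative in library 4 (0.79, 0.79, 0.47 and -0.48), as did Rhox6 (0.49, 0.75, 0.21 and -0.27). The UMIs that had no part in choosing the cells were still among the counts that named the 17 genes, so a reading there is not independent. In them 6 of the 17 were at least 25% higher in every library, with 11 having enough counts there. Against all other kept cells 2 of the 17 were, and 3 were with keratin or contractile cells left out. In the separate UMIs Mylpf differed by 0.43, 0.70, 0.88 and 1.33, Apoe by 0.34, 0.44, 0.78 and 1.12 and Fabp3 by 0.56, 0.44, 0.59 and 0.98.

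Over 10 equal bins of the kept cells, ordered by Mt1 and Mt2 share, 16 of the 17 genes stood higher in the highest than in the lowest bin of every library, and Elf3 was the exception. The bins reuse the cells and counts that named the genes, so this too is a description. Apoe was higher in each next bin in all 4 libraries (9 of 9 steps), from 1124, 422, 517 and 198 CPM in the lowest bin to 1534, 611, 1355 and 472 CPM in the highest. Mylpf was higher in 8 or 9 of 9 steps and Fabp3 in 8 of 9 in each library. Elf3 was nearly flat in library 1 (6.74, 8.78, 3.36 and 6.11 CPM in the lowest bins of libraries 1 to 4 and 6.60, 15.0, 8.26 and 13.4 CPM in the highest).

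**Figure D4:**
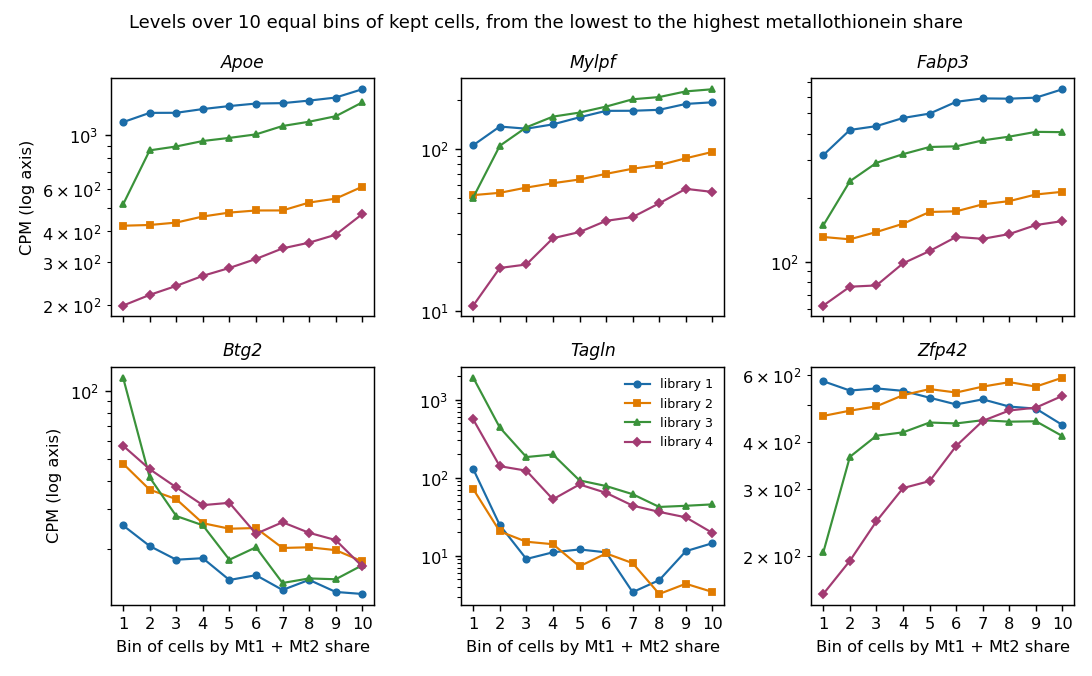
Level (CPM, log axis) of 6 genes over 10 equal bins of the kept cells, from the lowest to the highest Mt1 and Mt2 share, 1 line per library. Apoe, Mylpf and Fabp3 climbed over the range, Tagln dropped most between the lowest bins, Btg2 fell over the range, and Zfp42 went down in library 1 and up in library 4.

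Several of these genes are linked to oxidant and electrophile defence, so the listed NRF2 targets and glutathione or thioredoxin enzymes were read together. NRF2, the product of Nfe2l2, is held in check by Keap1 and switches on enzymes that regenerate glutathione, thioredoxin and NADPH. Of 20 listed genes 17 had enough counts, and 12 of them were higher in metallothionein-high cells of every library while 1 was lower, against 10.5% higher and 23.1% lower over all genes. None of the 17 was at least 25% higher in every library (0 of 17). The list median was log2 0.15, 0.16, 0.12 and 0.14, beside -0.02, -0.02, -0.05 and -0.07 over all genes read.

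Txn1, the thioredoxin that reduces protein disulfides, stood at 1026, 1015, 983 and 893 CPM in metallothionein-high cells and 858, 866, 862 and 738 CPM in metallothionein-low cells. Prdx1, a peroxiredoxin that depends on it, differed by log2 0.13, 0.10, 0.12 and 0.14. The glutathione reductase Gsr was 1.12, 1.11, 1.17 and 1.32 times as high and the sulfiredoxin Srxn1 differed by log2 0.26, 0.23, 0.33 and 0.56. Both differed most in library 4. The interval of the ratio lay above 1 in every library for 5 of the 12 genes, namely Txn1, Prdx1, Gsr, Gsta4 and Gstm1.

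Gstm1, a glutathione transferase with close copies, ranged from 1.13, 1.32, 1.38 and 1.60 over libraries 1 to 4. Nfe2l2 itself differed by log2 0.15, 0.27, 0.21 and 0.10, Keap1 by 0.14, 0.25, 0.11 and 0.26 and Hmox1, which degrades haem, by 0.22, 0.16, 0.07 and 0.23. Me1, the malic enzyme, was the member lower in every library, at 10.5, 12.1, 10.3 and 13.9 against 11.8, 14.9, 14.9 and 21.5 CPM. Gclc varied in sign between libraries (log2 0.14, -0.14, -0.05 and -0.33), as did Gclm (0.29, -0.01, 0.18 and -0.04). With metallothionein-low cells matched by UMIs, naive panel and keratin detection, 12 of 17 were higher and 2 lower in every library, 11 of the 12 being higher without matching too, and 9 of 16 were in the UMIs with no part in the choice.

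Cells in which the list's summed level was in the library's highest 5% made up 9.38, 11.1, 9.64 and 12.9% of the metallothionein-high cells and 2.46, 3.45, 3.07 and 2.71% of metallothionein-low cells. Heat shock chaperones gave 8.89, 7.06, 10.9 and 10.2% and 3.62, 4.67, 3.45 and 3.27%. A raised share was not particular to stress lists, since the list of core pluripotency factors gave 6.91, 9.88, 11.2 and 19.3% and 4.88, 4.18, 4.18 and 2.41%. Most metallothionein-high cells were therefore not among the highest for any one of these lists.

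No zinc carrier passed the smaller limit. Of 19 listed genes (Mtf1, the Slc30a exporters and the Slc39a importers) 11 had enough counts, of which 1 was higher and 5 were lower in every library, beside 10.5% higher and 23.1% lower over all genes read. Mtf1 stood at 18.9, 14.3, 15.0 and 13.9 CPM in metallothionein-high cells and 15.8, 14.8, 15.3 and 14.2 CPM in metallothionein-low cells. Slc30a1, the plasma membrane zinc exporter that Mtf1 is known to switch on, stood at 8.32, 10.5, 11.6 and 9.05 against 9.36, 9.96, 9.42 and 8.18 CPM. Both differed in opposite directions between libraries, and every one of these intervals but that of Mtf1 in library 1 (1.00 to 1.42) included 1.

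The importer Slc39a4, which is lowered in many tissues when zinc is plentiful, was the member higher in every library, with ratios of 1.10, 1.16, 1.22 and 1.65. The most counted importers, Slc39a10 (log2 -0.06, -0.21, -0.51 and -0.39) and Slc39a7 of the secretory pathway (-0.18, -0.23, -0.48 and -0.20), were lower in every library. Summed over the list, metallothionein-high cells carried 1.00, 0.897, 0.898 and 0.805 times the level of metallothionein-low cells.

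Among 14 genes of copper and iron handling 11 had enough counts, with 4 higher in every library (Ccs, Sod1, Cox17 and Ftl1), 0 lower and 0 past the smaller limit, beside 10.5% higher and 23.1% lower over all genes read. Ftl1, the ferritin light chain that stores iron, stood at 277, 255, 537 and 458 against 229, 219, 426 and 354 CPM, log2 0.27, 0.22, 0.33 and 0.37. Fth1, its heavy chain partner, was less apart and lower in library 4 (0.15, 0.08, 0.07 and -0.06). Atox1, a copper chaperone, varied in sign (0.13, 0.03, -0.06 and 0.17). Ferritin genes have processed copies in the genome, so their reads may be uncertain.

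The counts of the other stress and metabolism lists, all short, stand beside the 10.5% higher and 23.1% lower over all genes read. Heat shock chaperones had 4 members higher and 5 lower of 11 with enough counts, with Hsp90aa1 at log2 0.08, 0.12, 0.21 and 0.35 and Hspa8 at 0.22, 0.03, 0.29 and 0.06. The glucocorticoid receptor list had 1 higher and 1 lower of 7 (Klf9 -0.18, -0.02, -0.0047 and 0.37, and the kinase Sgk1 0.01, 0.13, 0.12 and 0.77). Hypoxia targets had 3 higher and 2 lower of 16 (Mif 0.22, 0.01, 0.22 and 0.06, Aldoa 0.16, 0.13, 0.18 and 0.10), glycolytic enzymes 4 higher and 2 lower of 13 (Gapdh 0.02, 0.04, 0.08 and 0.05), and integrated stress targets 1 higher and 4 lower of 15 (the asparagine synthetase Asns 0.17, 0.23, 0.23 and 0.03, Psat1 0.12, -0.02, 0.15 and -0.34). None of these genes passed the smaller limit. Sterol synthesis had 0 higher and 4 lower of 8, led by Hmgcs1, which makes the precursor of mevalonate (log2 -0.18, -0.20, -0.29 and -0.68), with Idi1 at -0.008, -0.02, -0.18 and -0.29. With keratin or contractile cells left out 0 of the 8 sterol genes were lower in every library, and of 10 heat shock chaperones read 4 were higher and 0 lower. Immediate early genes had 0 higher and 1 lower of 6, with Ier2 at -0.01, 0.17, -0.06 and 0.13 and Junb at 0.41, -0.04, -0.40 and -0.43.

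**Figure D5:**
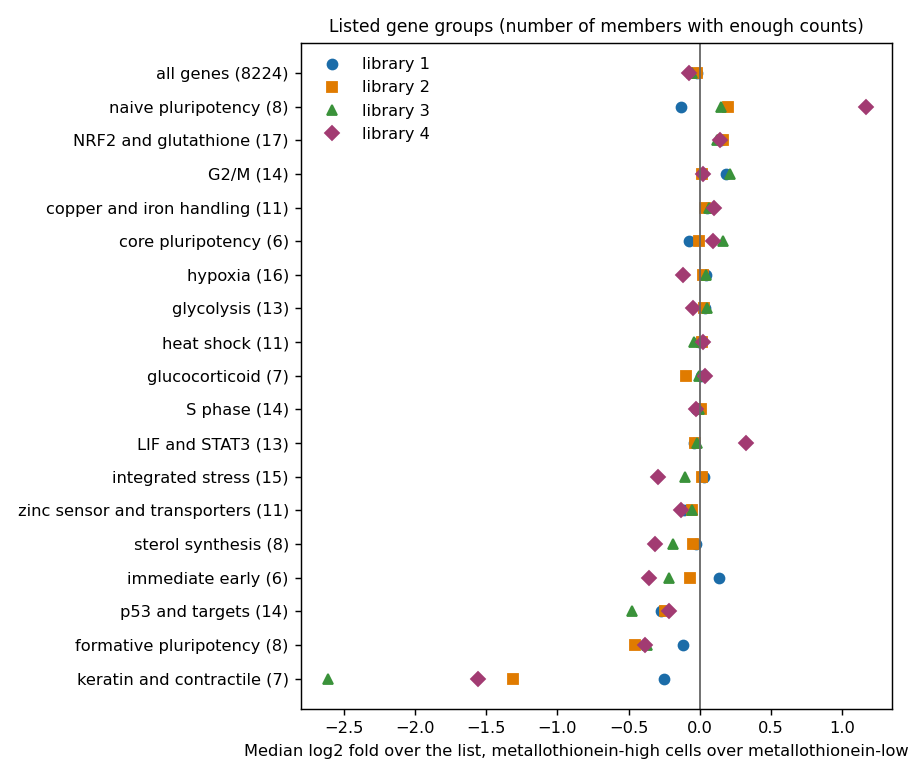
Median log2 fold over the members of each gene list with enough counts, and over all 8224 genes read, 1 marker per library. The NRF2 and glutathione list lay at 0.12 to 0.16 in all 4 libraries, p53 and its targets at -0.22 to -0.47, and the naive list ran from -0.13 in library 1 to 1.17 in library 4.

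Most of the genes listed with p53 were lower in every library, and 4 of them were at least 20% lower. The p53 protein responds to DNA damage and other stress by switching on genes that stop the cycle or start cell death. Of 16 listed genes 14 had enough counts, and 10 were lower and 0 higher in every library. Btg2 passed the 1.5-fold limit, and Btg2, Phlda3, Mdm2 and Trp53inp1 were at least 20% lower. Over all genes read, 23.1% were lower in every library by any size, 0.535% were at least 20% lower and 0.109% at least 1.5-fold lower. The list median was log2 -0.28, -0.25, -0.47 and -0.22.

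Btg2, an antiproliferative adaptor of mRNA deadenylation, stood at 12.5, 17.1, 19.7 and 16.3 CPM in the metallothionein-high cells of libraries 1 to 4 and 19.1, 33.2, 44.5 and 40.3 CPM in metallothionein-low cells. Mdm2, the ligase that degrades p53, stood at 28.5, 46.6, 33.5 and 38.2 against 37.6, 59.1, 64.7 and 53.9 CPM. Phlda3, an inhibitor of Akt, stood at 23.3, 42.8, 35.6 and 43.0 against 37.8, 58.3, 84.7 and 68.0 CPM. By ratio, library 3 had the widest gap for Mdm2 and Phlda3 and library 4 for Btg2.

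Ccng1, a cyclin among the most regular p53 targets, differed by log2 -0.28, -0.56, -0.71 and -0.64, and the cell cycle inhibitor Cdkn1a by -0.37, -0.42, -1.51 and -0.13. Trp53, which encodes p53 and is regulated mainly through its protein, and Bax were close to even (log2 -0.09, 0.05, 0.05 and 0.26 and -0.07, 0.02, 0.04 and 0.15). For 7 of the 10 lower genes the interval lay below 1 in every library. With metallothionein-low cells matched by UMIs, naive panel and keratin detection 9 of 14 were lower in every library, and with cells holding any Krt8, Krt18, Acta2 or Tagln UMI left out, an alternative added after seeing the data, 10 of 13 were.

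In every library the p53 list was highest in the lowest bin and lower in the second. The summed level of the p53 list was 1536, 1805, 2265 and 1576 CPM in the lowest bin of libraries 1 to 4, 1423, 1668, 1618 and 1502 CPM in the second and 1259, 1543, 1374 and 1447 CPM in the highest. Btg2 went from 25.5, 47.7, 114 and 57.3 CPM through 20.7, 36.6, 41.5 and 45.1 to 12.7, 17.7, 17.0 and 16.8 CPM over the same bins.

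The genes that were at least 1.5-fold lower comprised smooth muscle contractile genes (Acta2, Tagln), a keratin (Krt19), Phlda1, Serpine2, Gadd45g, Azin2 and Rap2b beside Btg2. The count minimum was met over both classes together, and metallothionein-low cells are far more numerous, so that genes high in them could pass through that class. With the minimum set instead on the kept cells of neither class, 3 of the 9 (Btg2, Rap2b and Tagln) stayed called, of 7842 genes read. The values of the other 6, Acta2 among them, are therefore a description. The UMIs that had no part in choosing the cells were among the counts that named the 9 genes, so their direction there is not independent. In them 0 of the 9 were called, and 3 had enough counts. All 9 were lower in every library, with Tagln at log2 -0.52, -3.75, -3.35 and -2.98, Btg2 at -0.14, -0.99, -1.82 and -1.24 and Rap2b at -0.30, -0.63, -0.89 and -0.86. Library 1 was the one under the limit for all 3.

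Tagln, an actin-binding protein of contractile and flattened cells, stood at 11.3, 2.19, 44.9 and 21.8 CPM in metallothionein-high cells and 34.2, 24.5, 545 and 186 CPM in metallothionein-low cells and was 3.02, 11.2, 12.1 and 8.52 times lower. Acta2, smooth muscle actin, stood at 0.126, 0.877, 2.46 and 3.93 against 8.84, 5.31, 238 and 24.6 CPM. Its ratio of 0.0143, 0.165, 0.0103 and 0.160 rested on 1, 8, 19 and 33 UMIs in the metallothionein-high cells, and in library 1, with 1 UMI, the counting interval was 0.000360 to 0.0797.

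Krt19 stood at 3.78, 2.41, 8.02 and 7.62 against 7.84, 6.02, 53.1 and 38.6 CPM and Phlda1, a growth-factor-responsive protein, at 1.39, 1.86, 8.02 and 4.65 against 6.08, 5.29, 65.3 and 28.5 CPM. Serpine2, a secreted protease inhibitor, stood at 3.53, 6.47, 6.21 and 6.67 against 7.05, 16.4, 20.4 and 16.0 CPM. Library 3 held the widest gap for all 3 genes. Gadd45g, a stress sensor, was 1.97, 1.77, 3.40 and 1.59 times lower, Azin2, an antizyme inhibitor of polyamine synthesis, 1.64, 1.86, 2.35 and 1.84 times and the small GTPase Rap2b 1.51, 1.58, 1.79 and 1.78 times.

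The list of simple keratins and contractile genes had 7 of 10 members with enough counts, all 7 lower in every library, beside 23.1% over all genes. With the count minimum set on cells of neither class 6 were read, all 6 lower, and 4 of 6 were lower in the UMIs with no part in the choice. Krt8 differed by log2 -0.32, -1.79, -2.86 and -1.56 and its partner Krt18 by -0.24, -1.12, -2.61 and -1.24, while Tpm1, a tropomyosin, was nearly even in library 1 (log2 -0.0058, -0.14, -1.81 and -0.90). The list's summed level was 276, 237, 519.9 and 445 CPM in metallothionein-high cells and 333, 328, 2989.9 and 1098 CPM in metallothionein-low cells. In library 1 the share of cells with a UMI differed in direction between genes. Among metallothionein-high cells 16.8% held Krt8 or Krt18 against 13.2% of metallothionein-low cells, and Tagln was held by 21 of 405 against 142 of 4059 cells, while Acta2 was held by 1 of 405 against 23 of 4059, at median depths of 18432 and 17764 UMIs. In library 4 the shares were 37.5% against 60.4% for Krt8 or Krt18 and 15.8% against 33.0% for Tagln. Compared with all other kept cells instead of metallothionein-low cells, 3 of the 7 were lower in every library.

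This gap lay mostly in the lowest bin of cells. The list's summed level was 755, 526, 9749 and 2627 CPM there in libraries 1 to 4, 327, 314, 2538 and 894 CPM in the second bin and 271, 251, 521 and 409 CPM in the highest. Tagln likewise stood at 129, 71.7, 1908 and 557 CPM in the lowest bin and at 24.8, 20.5, 439 and 140.3 CPM in the second.

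Leaving out all cells with a UMI of Krt8, Krt18, Acta2 or Tagln (20183 kept cells remained) left 5949 genes with enough counts, and only 2 of the 9 lower genes, Btg2 and Rap2b, were among them. Neither was called there. Both were under the 1.5-fold limit in library 3, and Rap2b was in library 2 as well. The transcription factor Neurod1, 1 other gene, was called. Azin2 stayed past 1.5-fold in every library but had too few counts, and Acta2 and Tagln were removed by construction. Btg2 then differed by log2 -0.63, -0.90, -0.53 and -1.17, Serpine2 by -1.08, -1.08, -0.19 and -1.07, Rap2b by -0.62, -0.57, -0.14 and -0.61 and Azin2 by -0.64, -0.70, -1.14 and -0.59, each lower in every library. Phlda1 was no longer lower in library 4 (-0.34, -0.49, -0.13 and 0.08).

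The remaining genes at least 20% lower, named after their values were seen, included Nes, an intermediate filament of neural progenitors (log2 -0.39, -1.26, -1.80 and -2.30), Sox4, a transcription factor of progenitor cells (-0.44, -0.83, -1.32 and -1.25), and Eda2r, a receptor that p53 is known to switch on (-0.37, -0.51, -0.93 and -0.46). Nes and Sox4 met the count minimum in cells of neither class as well, and Eda2r did not. The UMIs with no part in choosing the cells were still among the counts that named these genes. In them Nes was not lower in library 1 (0.22, -1.41, -1.98 and -2.44), while Sox4 was lower in all 4 (-0.35, -0.85, -1.49 and -1.09).

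Pluripotency genes differed between libraries rather than between the classes alone. Naive cells, which LIF helps to maintain, express genes such as Zfp42, Klf2, Esrrb and Nanog. Formative cells on the way to differentiation express Otx2, Dnmt3b and Pou3f1. The summed naive list was 1749, 1735, 1482 and 1424 CPM in the metallothionein-high cells of libraries 1 to 4 and 1995, 1489, 1275 and 678 CPM in metallothionein-low cells. Metallothionein-high cells thus carried less of it in library 1 and 2.10 times as much in library 4, and 1 of 8 genes with enough counts, Tfcp2l1, was higher in every library, a share near the 10.5% over all genes.

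Zfp42, the naive marker also called Rex1, stood at 426, 579, 402 and 567 against 547, 507, 374 and 245 CPM. Klf2 differed by log2 -0.06, 0.26, 0.34 and 1.32, Esrrb by -0.24, 0.09, 0.17 and 1.16, Nanog by -0.07, 0.36, 0.30 and 0.97 and Klf4, a target of LIF and STAT3 signalling, by -0.44, -0.04, 0.03 and 0.94. All of these were lower in library 1 and higher in library 4. Over the 10 bins Zfp42 went from 577, 468, 204 and 158 CPM in the lowest to 442, 590.0, 413 and 528 CPM in the highest, so the lines of the libraries crossed. The LIF and STAT3 list, which shares Klf4, Klf5 and Tfcp2l1 with the naive one, had 2 higher and 1 lower of 13, beside 10.5% and 23.1% over all genes, with Klf5 at -0.17, 0.16, 0.03 and 0.43.

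Formative genes were lower in sum in every library. Their summed list was 0.922, 0.739, 0.820 and 0.610 times the level of metallothionein-low cells, 4 of 8 genes with enough counts were lower and 0 higher in every library (23.1% and 10.5% over all genes), and none passed the smaller limit. In the UMIs with no part in the choice 2 of 7 were lower in every library. Otx2 stood at 19.8, 76.1, 17.1 and 109.7 against 28.5, 96.2, 26.5 and 128 CPM. Dnmt3b, a de novo DNA methyltransferase, was even in library 1 (83.3 against 83.2 CPM) and lower in library 4 (371 against 690.4 CPM), and Pou3f1 differed by log2 0.17, -0.70, -0.46 and -1.37.

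The core factors were measured alongside to check the cell type. Pou5f1, which encodes Oct4 and is shared by all pluripotent states, stood at 829, 774, 689 and 759 CPM in metallothionein-high cells and 865, 803, 637 and 776 CPM in metallothionein-low cells, a difference of at most 0.11 on the log2 scale. Sox2 differed by log2 -0.29, 0.07, 0.22 and 0.55. Dppa5a, an RNA-binding protein of the naive state and the most counted of the list, stood at 5123, 4088, 4893 and 3809 against 5066, 3234, 3514 and 1830.2 CPM, nearly even in library 1 and higher in the others. Both classes thus carried the defining transcripts of mESC.

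Markers of 5 other cell types summed to at most 22.0 CPM per list in either class. The formative list and the list of keratins and contractile genes, described above, are not among these 5 and stood higher. The summed lists in metallothionein-high cells of libraries 1 to 4 were 4.79, 4.39, 5.43 and 4.17 CPM for primed or primitive streak cells (most counted members Wnt3 and Eomes), 6.80, 6.69, 11.5 and 9.89 CPM for trophectoderm (Krt7 and Ascl2), 4.16, 2.74, 3.75 and 2.50 CPM for primitive endoderm (Dab2 and Amn), 0.126, 0.110, 0.129 and 0 CPM for two-cell-like cells (Zscan4c and Usp17lc) and 1.64, 4.71, 1.42 and 4.53 CPM for fibroblasts (Thy1 and Col1a2). In metallothionein-low cells the lists ranged over the libraries from 3.92 to 11.2 CPM for primed or primitive streak cells, 6.46 to 19.8 for trophectoderm, 2.40 to 9.24 for primitive endoderm, 0.273 to 1.51 for two-cell-like cells and 2.90 to 22.0 for fibroblasts. In library 3 each of the 5 lists was higher in metallothionein-low cells, the fibroblast list most. None of these genes had enough counts to be read. Cer1, Cdx2, Elf5, Pdgfra, Afp, Ttr, Zscan4f, Dcn, Lum and Postn had 0 UMIs in the metallothionein-high cells of every library, which allows up to 0.376, 0.328, 0.385 and 0.355 CPM in libraries 1 to 4. The primitive endoderm list was higher in the metallothionein-high cells of library 1 (1.73 times, interval 1.16 to 2.52) and lower in libraries 3 and 4.

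Median depth and RNA quality were close between the classes. Total UMIs are the denominator of the share that chose the classes, so depth enters the choice. Metallothionein-high cells had median totals of 18432, 21039, 18886 and 21680.0 UMIs in libraries 1 to 4 and metallothionein-low cells 17764, 21445, 19208 and 21033. They had 4071, 4442, 4111 and 4459 genes detected against 3998, 4567, 4220.5 and 4563, and mitochondrial shares of 5.26, 3.98, 4.62 and 3.60% against 5.43, 4.16, 4.37 and 3.42%. Cells with over 2 times the median UMIs of their library, where doublets would gather, made up 2.72, 0.471, 2.28 and 1.61% of metallothionein-high cells and 4.78, 2.87, 7.07 and 3.62% of metallothionein-low cells. These shares were lower in the metallothionein-high cells of every library. Because depth enters the choice, that was not read as fewer doublets. Free RNA from broken cells also carries Mt1 and Mt2, and its part in the levels was not tested.

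The summed S phase genes were nearly even, and 6 of the G2/M genes were higher in every library. The 14 S phase genes summed to 0.977, 1.01, 1.01 and 1.00 times the level of metallothionein-low cells, with 3 higher and 4 lower in every library, beside 10.5% and 23.1% over all genes (the most counted, Hells and Mcm3, at log2 -0.20, -0.0022, -0.12 and 0.10 and -0.06, -0.0032, 0.05 and 0.04). The 14 G2/M genes summed to 1.11, 1.01, 1.18 and 1.04 times, with 6 higher, 0 lower and 0 past the smaller limit, beside the same shares over all genes, and 4 of 14 were higher in the UMIs with no part in the choice. Ube2c, a ubiquitin carrier of the anaphase-promoting complex, stood at 754, 645, 727 and 561 against 599, 612, 545 and 463 CPM, while Top2a differed by -0.11, -0.06, 0.09 and 0.07. Of 79 ribosomal protein genes read, 0 passed the smaller limit in either direction.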

How the data were processed

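Single-cell 3′ RNA libraries from 4 samples (WT and Srrm2 hKO mESC, 2 replicates each) were analysed. The deposited matrix holds raw UMI counts per gene and barcode, made by the authors with Cell Ranger 6.1.2 on the mm10 genome and joined at default settings, a step that subsamples reads to even out depth. It held 32285 genes and 41142 barcodes. Barcode numbers 1 to 4 name libraries that no label ties to a sample, so Srrm2 hKO was not compared with WT and the planned comparison was not made.

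The study's cell filter was applied per library as its methods state it: UMIs and detected genes at or above the mean minus 1 SD, mitochondrial share at most 10%. The 31989 kept cells are more than the study reports after its own quality control, and the difference was not traced. No doublet caller was run, and cells over 2 times the median UMIs were left out in an alternative. Kept cells held 166839268, 200180473, 172407338 and 174050451 UMIs in libraries 1 to 4. Counts were summed per class and library and given as CPM, without Mt1 and Mt2 in the totals of other genes. A fold is the ratio of the classes within a library. Levels have exact 95% Poisson intervals and ratios exact conditional binomial ones. All cover counting error only. The floor for a count of 0 was 3 counts. Cells are not replicates, so no test was made, and a gene was called by size: a difference of 1.5-fold or more, with 1 direction over all libraries, and at least 500 UMIs over both classes in each.

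Named genes were the called genes, the 2 most counted members of each list and the neighbours of the cluster. Others, including the 17 genes at least 25% higher, were chosen after their values were seen. The cells and gene lists were chosen with earlier results of these data known. The size rule was run on simulated counts with counting error only. That run does not cover differences between cells or cultures. Gene positions came from GENCODE M21 (GRCm38) by identifier, 8224 of 8224 matched, and promoter windows from RefSeq (GRCm38.p6). Alternatives varied the share limit, comparison cells, cell filter, matching, fold, count minimum, scaling and choice of cells. Python 3.11.15, numpy 2.4.6, scipy 1.17.1, pandas 2.3.3 and matplotlib 3.10.9 were used.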

Additional observations from a re-analysis of the deposited data

How the results depend on the processing

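No paired analysis was possible because the result comes from no test: the classes were cut by a readout of the same cells. Each ratio was already taken within a library, and the labels' replicate numbers are not tied to libraries. The count of 0 genes at least 1.5-fold higher became 17 at the smaller limit of 25% higher, 3 with at least 200 UMIs and 13 with at least 20, 2 with median-of-ratios scaling, with cells chosen by Mt2 alone or with a mean over cells, and 1 with the highest 10%, all other kept cells as comparison, all barcodes, high-UMI cells left out, cells matched by UMI bins, or (added after seeing the data) keratin or contractile cells left out. Leaving out 1 library gave 0 to 3. The count of 9 genes lower became 44 at the limit of 20% lower, 4 at 2-fold, 21 with at least 200 UMIs and 138 with at least 20, 5 with cells chosen by Mt2 alone, 0 where the choice and the reading used separate UMIs (6320 genes read), 3 with the count minimum in cells of neither class (added after seeing the data) and 1 with keratin or contractile cells left out. Leaving out 1 library, which can only keep or raise either count, gave 9 to 82, the highest without library 1. The 7 keratin and contractile genes became 4 with the highest 2%, with Mt2 alone and with separate UMIs, 3 against all other kept cells and 1 with keratin or contractile cells left out. The cause was not tested, except that lower count minimums read more genes, and separate UMIs (6320), leaving out keratin or contractile cells (5949) and the minimum in cells of neither class (7842) fewer. Over 22 alternatives for each of the 9 called genes, 56 of 198 values lost the call and 142 kept it. The other named genes gained a call in 49 values, and 0 values of the 71 named genes turned to a call in the opposite direction. Calls need 1 direction over all libraries, and the sign in a single library could change, as for Phlda1. Depth limits genes with few UMIs, since metallothionein-high cells numbered 373 to 425 per library.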
